A study of Mus musculus with 12 samples.

Results

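The genes described here are 8 genes that mark the pancreatic duct or form the keratin filaments of simple, single-layered epithelia: Krt7, Krt8, Krt18, Krt19, Muc1, Cftr, Sox9 and Onecut1. They were chosen by name, and each of the 8 was found as a single row among the 23234 genes of the expression table. RNA was measured in mouse islets of the strain C57BL/6 in 3 groups of 4 libraries: isolated islets that had not been transplanted, and islet grafts recovered 60 and 120 days after transplantation into inguinal subcutaneous white adipose tissue, the fat pad under the skin of the groin. No transgene, deletion or drug is named for any group. The age and sex of the animals and whether host and donor were separate strains are not given in the sources used here. The labels number the libraries but do not say that each came from its own animal or islet preparation, so each p-value reflects library-to-library spread alone, and that spread may be technical.

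The ducts of the pancreas carry digestive enzymes from the acinar cells to the gut and add a fluid rich in bicarbonate, for which the chloride channel Cftr is needed. Duct cells are held together by intermediate filaments, each an equal pairing of a type II keratin (Krt7 or Krt8) with a type I keratin (Krt18 or Krt19). In the adult mouse pancreas Krt19 and Krt7 are commonly used as duct markers, while Krt8 and Krt18 are also made by acinar cells and, at lower levels, by endocrine cells. Muc1 is a mucin of the apical membrane of duct and acinar cells. Sox9 and Onecut1 (also called HNF6) are transcription factors that duct cells keep from the pancreatic progenitors, and Sox9 is needed for their identity. Islets are freed from the exocrine pancreas by enzyme digestion, and pieces of duct and acinar tissue commonly remain attached.

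The promoters of the 3 keratins with the highest levels in grafts are shown because these genes lie close together on chromosome 15 and their test results differed: Krt8 and Krt18 fell and Krt7 did not pass. In the RefSeq promoter table of build GRCm38.p6, which held 6 of the 8 genes (Krt19 and Sox9 did not match), the starts of Krt8 and Krt18 lie 23.9 kb apart and those of Krt7 and Krt8 592 kb apart. Each sequence is the untranscribed stretch of the 250 bases upstream of the RefSeq start, written 5′ to 3′ on the gene's own strand, at chr15:101412153-101412401 (plus strand) for Krt7, chr15:102004483-102004592 (minus strand) for Krt8 and chr15:102027966-102028179 (plus strand) for Krt18. Capitals mark letters that match a searched motif on either strand.
Krt7: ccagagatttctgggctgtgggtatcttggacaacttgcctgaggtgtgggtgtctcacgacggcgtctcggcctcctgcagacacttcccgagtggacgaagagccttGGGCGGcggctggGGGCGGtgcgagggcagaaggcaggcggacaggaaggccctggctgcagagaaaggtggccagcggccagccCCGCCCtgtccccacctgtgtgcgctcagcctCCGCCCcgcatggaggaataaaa
Krt8: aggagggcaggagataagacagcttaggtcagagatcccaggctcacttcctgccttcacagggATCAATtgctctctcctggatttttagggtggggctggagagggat
Krt18: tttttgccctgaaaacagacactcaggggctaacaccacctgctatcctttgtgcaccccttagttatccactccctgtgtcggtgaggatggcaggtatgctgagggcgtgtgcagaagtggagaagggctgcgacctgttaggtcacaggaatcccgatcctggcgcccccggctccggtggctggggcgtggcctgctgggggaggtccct
The Krt7 stretch holds 4 matches to the GC box letters GGGCGG, a match found in 32.7% of the 32851 promoter windows of 250 bases. The Krt8 stretch holds 1 match to ATTGAT, the core letters bound by Onecut factors, read on the opposite strand and found in 6.72% of windows. No match to TGANTCA (the AP-1 site, in 6.75% of windows) or TATAAA (the TATA box, in 12.4%) was found in these 3, and none of the 4 motifs in Krt18. The stretches of Krt7, Krt8 and Krt18 hold 249, 110 and 214 bases, shorter than the windows behind these shares. No matches overlapped within the 3 stretches. A match is a description of the letters and was not tested as a binding site.

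Libraries standing apart bear on every result below. Levels are in FPKM, fragments of a gene relative to its length and to how many fragments were mapped in that sample, and read depth is unknown. Isolated islet replicate 1 lay at -46.0 on the first principal component, against -91.3 to -86.1 for the other isolated islets. Day 60 replicate 1 lay at -89.0 on the second, against -4.61 to 21.7 for the other day 60 grafts, and it had the highest summed fat genes of any library (15196 FPKM over 12 adipocyte genes). The 20 endocrine genes, among them the hormone genes Gcg and Sst, summed to between 54926 and 65421 FPKM in isolated islets. In grafts the sums ran from 41657 (day 60 replicate 1) to 88206 at day 60 and from 63930 to 76933 at day 120, so all libraries held endocrine RNA. In bulk tissue, fewer cells of a type and less RNA per cell cannot be told apart.

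**Figure D1:**
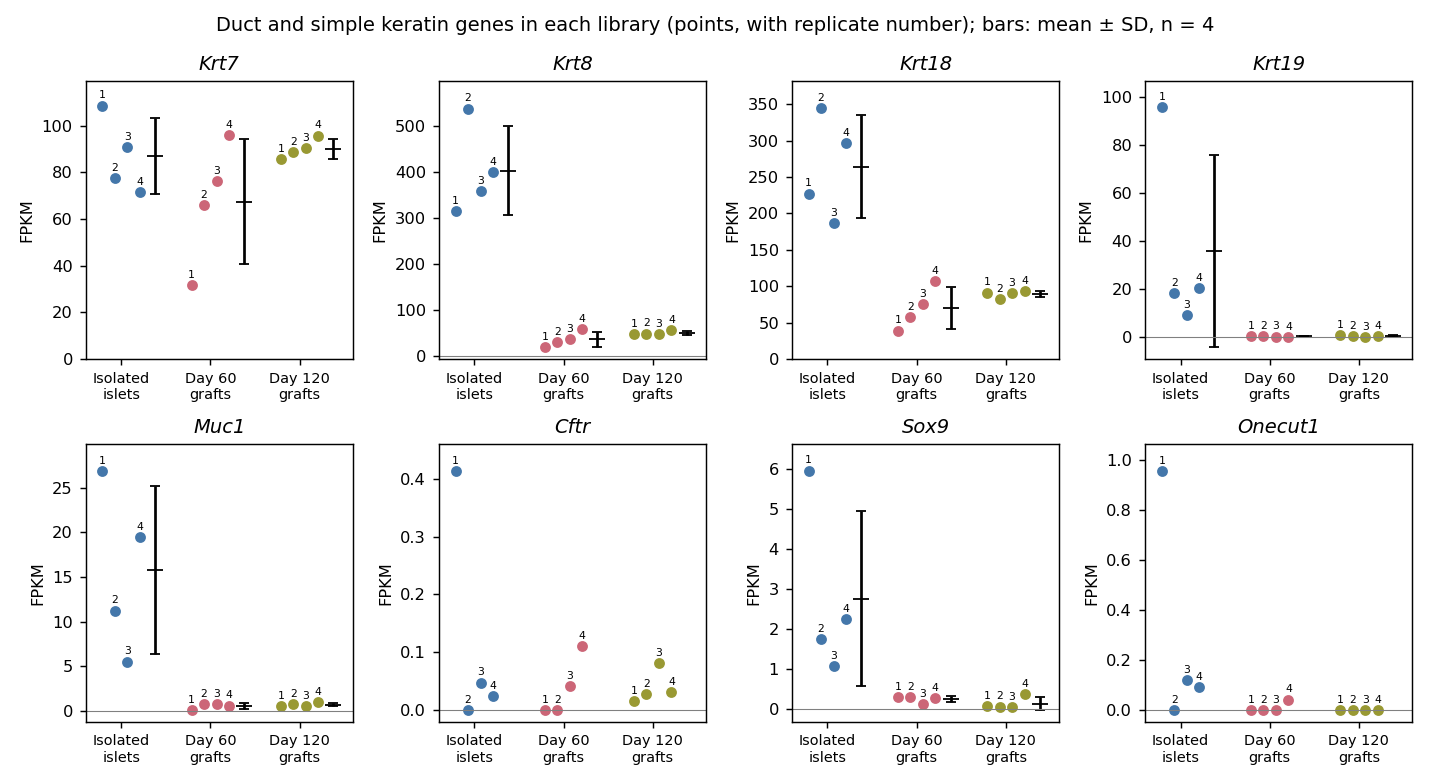
Level of each of the 8 genes in FPKM (vertical axis, linear, a separate scale for each gene) by group (isolated islets and grafts of both ages). Points are libraries with their replicate number, and bars give the mean ± SD of 4 libraries, left out for Cftr and Onecut1, which have values listed at 0. Krt8, Krt18, Krt19, Muc1 and Sox9 lie higher in every isolated islet library than in any graft, while Krt7 overlaps.

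In grafts of both ages, RNA of Krt8, Krt18, Krt19, Muc1 and Sox9 was lower than in isolated islets, whereas the Krt7 groups overlapped. Of the 8 genes, 6 passed the filter (1 FPKM or more in 4 or more libraries) and went into the limma fit on log2(FPKM + 1), a scale on which changes of low genes are understated. At an adjusted p under 0.05, 5 of the 6 fell at day 60, where 12.3% of all 13433 tested genes fell, and 5 fell at day 120, where 7.03% did. None of the 6 rose, against 31.3% of all tested genes at day 60 and 24.3% at day 120. The groups did not overlap, with every graft lower, for 5 of the 6 at both ages, against 9.01% of all tested genes at day 60 and 7.24% at day 120. Krt19, Muc1 and Sox9 were below 1 FPKM in all 8 grafts and passed the filter only through the isolated islets. A difference was thus built into their being tested, and neither these counts nor their adjusted p-values under the filter carry weight for them. Where the filter was applied anew without any 1 isolated islet library, these 3 dropped out of the test and 2 members, Krt8 and Krt18, passed. Both graft comparisons use the same 4 isolated islet libraries and are not independent. Over all tested genes the median log2 change was 0.27 at day 60 and 0.30 at day 120.

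Krt8, the type II keratin that pairs with Krt18, had the highest level in isolated islets. Its level was 315, 538, 359 and 401 FPKM in isolated islet replicates 1 to 4, 19.3, 30.2, 36.3 and 58.3 at day 60 and 46.8, 48.4, 47.8 and 55.7 at day 120. The lowest isolated islet library was above every graft by a wide margin, and the day 120 grafts were the most alike of the 3 groups. The means were 403 ± 96.5 (SD, n = 4), 36.0 ± 16.4 and 49.7 ± 4.08 FPKM. The mean level in isolated islets was 11.2 times that at day 60 and 8.12 times that at day 120. The log2 change was -3.53 at day 60 (SE 0.277, limma adjusted p = 5.11e-06) and -2.97 at day 120 (adjusted p = 2.63e-05). It ranged from -3.64 to -3.38 and from -3.08 to -2.82 when each isolated islet library was left out in turn.

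Krt18, its type I partner, fell by less. Its level was 227, 345, 187 and 297 FPKM in isolated islet replicates 1 to 4, 39.0, 57.6, 75.8 and 108 at day 60 and 91.2, 82.4, 91.0 and 92.9 at day 120. Day 60 replicate 1 was the lowest and day 60 replicate 4 the highest of all grafts, as also for Krt8. The means were 264 ± 70.7 (SD, n = 4), 69.95 ± 29.2 and 89.4 ± 4.75 FPKM, so that the mean in isolated islets was 3.77 times that at day 60 and 2.95 times that at day 120. The log2 change was -1.96 at day 60 (SE 0.278, limma adjusted p = 0.000508) and -1.51 at day 120 (adjusted p = 0.00369). Without each isolated islet library in turn it ran from -2.11 to -1.81 and from -1.67 to -1.37. RefSeq lists a processed copy named Krt8-ps that has no row in the expression table, and how the authors' counting treated reads shared with such copies is not given in the sources used here.

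Krt7, the type II keratin used as a duct marker, stayed at a high level in the grafts. In the same grafts Krt19, Muc1, Sox9, Cftr and Onecut1 were all below 1 FPKM. Whether the Krt7 RNA of the grafts came from duct cells was not tested. It stood at 109, 77.5, 90.8 and 71.5 FPKM in isolated islet replicates 1 to 4, at 31.8, 66.0, 76.4 and 95.9 at day 60 and at 85.6, 88.8, 90.5 and 95.8 at day 120. The 3 groups overlapped, and only day 60 replicate 1 lay well below the rest. The means were 87.1 ± 16.5 (SD, n = 4), 67.5 ± 26.8 and 90.2 ± 4.26 FPKM. The log2 change of -0.45 at day 60 did not pass (95% interval -1.05 to 0.15, limma adjusted p = 0.203), nor did that of 0.07 at day 120 (-0.53 to 0.66, adjusted p = 0.870). The intervals do not reach the changes estimated for Krt8 or Krt18. Without isolated islet replicate 1 and day 60 replicate 1 together the day 60 value was -0.02, and the day 120 value fell below 0 without isolated islet replicate 4 and under several scalings (lowest -0.28).

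Krt19, the type I keratin most often used to label ducts, differed widely between isolated islet libraries. Its level was 95.6 FPKM in isolated islet replicate 1 and 18.4, 9.26 and 20.3 in replicates 2 to 4. In the day 60 grafts it was 0.379, 0.321, 0.141 and 0.057, and in the day 120 grafts 0.720, 0.417, 0.085 and 0.390. Every graft was thus below 1 FPKM and every isolated islet library above 9. The log2 change was -4.38 at day 60 (SE 0.502, limma adjusted p = 0.000125) and -4.19 at day 120 (adjusted p = 0.000270). With isolated islet replicate 1 left out, these became -3.73 and -3.55, and the mean in isolated islets fell from 160 to 71.3 times the day 60 mean. A smaller pseudocount of 0.01 gave a log2 change of -6.98 at day 60. Krt19 passed the filter only through the isolated islets, so these p-values carry no weight.

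Muc1, the apical mucin, was read at 26.9, 11.2, 5.52 and 19.5 FPKM in isolated islet replicates 1 to 4. It was 0.125, 0.740, 0.733 and 0.592 at day 60 and 0.553, 0.720, 0.536 and 0.943 at day 120. Isolated islet replicate 3 was the lowest of its group and still above all 8 grafts. The log2 change was -3.26 at day 60 (SE 0.360, limma adjusted p = 9.26e-05) and -3.12 at day 120 (adjusted p = 0.000182). It became -2.95 and -2.81 without isolated islet replicate 1. As Muc1 passed the filter only through the isolated islets, its p-values carry no weight.

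Sox9, the transcription factor of duct and progenitor cells, was low in all groups. It stood at 5.96, 1.74, 1.07 and 2.26 FPKM in isolated islet replicates 1 to 4, at 0.305, 0.305, 0.126 and 0.271 at day 60 and at 0.071, 0.062, 0.050 and 0.370 at day 120. The groups did not overlap, although isolated islet replicate 3 was close to 1 FPKM. The log2 change was -1.43 at day 60 (SE 0.294, limma adjusted p = 0.00299) and -1.57 at day 120 (adjusted p = 0.00394). Without isolated islet replicate 1 it was -1.08 and -1.23, and with a pseudocount of 0.01 it was -3.18 and -4.39. The p-values of Sox9 carry no weight either, because it passed the filter only through the isolated islets.

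Cftr, the bicarbonate and chloride channel, and Onecut1, the progenitor factor, were below 1 FPKM in all 12 libraries and were not tested. Cftr was 0.414 FPKM in isolated islet replicate 1, listed at 0 in replicate 2 and at 0.047 and 0.024 in replicates 3 and 4. In grafts it was listed at 0 in day 60 replicates 1 and 2, at 0.041 and 0.110 in replicates 3 and 4, and at 0.015, 0.027, 0.081 and 0.030 at day 120. Outside isolated islet replicate 1 the groups therefore overlapped at a level near the bottom of the table. Onecut1 was 0.957 FPKM in isolated islet replicate 1, listed at 0 in replicate 2, and 0.118 and 0.090 in replicates 3 and 4. In grafts it was 0.041 in day 60 replicate 4 and listed at 0 in the other 7. With no filter on low values, neither gene passed at day 60 (limma adjusted p = 0.440 for Cftr and 0.170 for Onecut1) or day 120 (0.486 and 0.181).

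**Figure D2:**
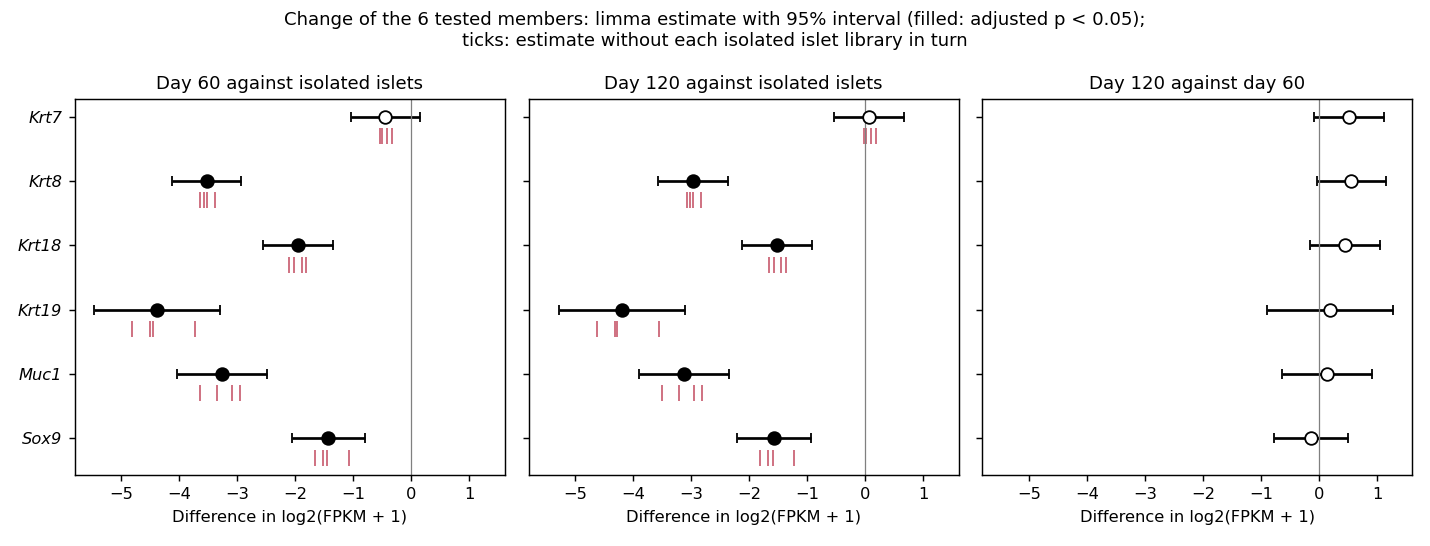
Difference in log2(FPKM + 1) of the 6 tested genes for each of the 3 comparisons, as limma estimates with 95% intervals, filled where the adjusted p is under 0.05. Ticks below each estimate give the value without each isolated islet library in turn: in both graft comparisons Krt8, Krt18, Krt19, Muc1 and Sox9 stay below 0 with every library left out, and Krt7 lies near 0.

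Between the grafts themselves no member passed. Day 120 against day 60, the log2 change was 0.56 for Krt8 (95% interval -0.04 to 1.16, limma adjusted p = 0.495), 0.52 for Krt7 (-0.08 to 1.11, 0.511) and 0.44 for Krt18 (-0.16 to 1.04, 0.532). It was 0.19 for Krt19, 0.14 for Muc1 and -0.14 for Sox9, with adjusted p-values of 0.901, 0.893 and 0.859. Of all tested genes 0.0149% passed in either direction, which is 2 genes, and 1356 had an unadjusted p under 0.05. Same-numbered day 60 and day 120 grafts deviated together, and with the replicate number as a block on the 8 grafts 3 genes and no member passed. Without day 60 replicate 1 the values of Krt8, Krt7 and Krt18 were 0.30, 0.20 and 0.20. Scaled to non-hormone endocrine genes, an alternative added after the data were seen, they were below 0 (-0.15, -0.20 and -0.27), and with array weights Krt8 alone among the members passed (limma adjusted p = 0.0408).

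The make-up of the keratin RNA differed between isolated islets and grafts. The 4 simple keratins summed to 790 ± 140 FPKM (SD, n = 4) before transplantation, 174 ± 71.4 at day 60 and 230 ± 10.8 at day 120. The ratio of Krt8 to Krt18 was 1.39, 1.56, 1.92 and 1.35 in isolated islet replicates 1 to 4, 0.494, 0.525, 0.479 and 0.542 at day 60 and 0.513, 0.588, 0.526 and 0.600 at day 120. Krt8 was thus the higher of the pair in every isolated islet library and the lower in every graft. Such a ratio within a library does not depend on scaling between libraries, but it shows unequal change only, and it was chosen after the values were seen and not tested. Even day 60 replicate 1, the graft with the lowest keratin levels and the most fat RNA, had a ratio within the range of the other grafts.

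Krt7 was the more abundant type II keratin in every graft and Krt8 in every isolated islet library. Krt7 held 11.4% ± 3.40 (SD, n = 4) of the sum of the 4 keratins in isolated islets, 38.8% ± 3.49 at day 60 and 39.3% ± 0.898 at day 120, while Krt8 held 50.9% ± 6.16, 20.6% ± 1.42 and 21.6% ± 0.939. Krt18 held 33.1% ± 4.07, 40.4% ± 2.38 and 38.9% ± 1.49. Krt19 held 12.8% in isolated islet replicate 1, 1.43% to 2.58% in the other isolated islets and at most 0.419% in grafts. The ratio of the summed type II to the summed type I keratins was 1.70 ± 0.428 in isolated islets, 1.47 ± 0.150 at day 60 and 1.56 ± 0.0992 at day 120, and the groups overlapped.

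**Figure D3:**
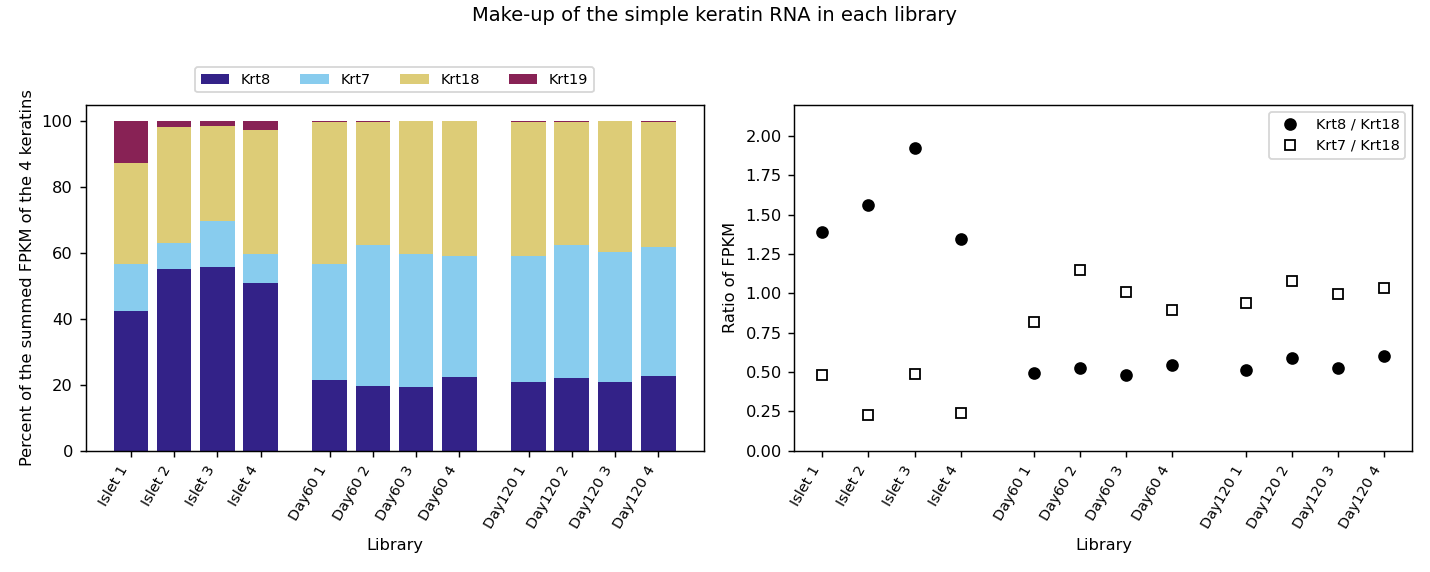
Left, share of each of Krt8, Krt7, Krt18 and Krt19 in their summed FPKM (percent, stacked bars) in each library. Right, ratio of Krt8 to Krt18 (filled circles) and of Krt7 to Krt18 (open squares) per library: Krt8 to Krt18 is 1.35 to 1.92 in isolated islets and 0.479 to 0.600 in grafts, and no isolated islet library overlaps a graft in either ratio.

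Isolated islet replicate 1 differed from the other isolated islets in duct genes, in both directions. Set against the mean of replicates 2 to 4, it had 5.97 times the Krt19, 3.52 times the Sox9 and 2.23 times the Muc1, along with the highest Cftr and Onecut1 values. It had 1.36 times the Krt7 but only 0.729 times the Krt8 and 0.822 times the Krt18. Of the other 44 duct genes 40 reached 1 FPKM in an isolated islet library, and 14 of them (35%) were more than 2 times as high in replicate 1 as in any other isolated islet library, compared with 12.6% of all 12990 genes at that level. Replicate 1 was the highest isolated islet library for 57.5% of the 40, beside 49.3% of all such genes. It was the lowest for Cldn4 (94.97 FPKM against 242 to 375), Cldn7 (43.0 against 78.3 to 86.6) and the adhesion gene Epcam (84.7 against 123 to 125). Among those more than 2 times as high were Spp1, osteopontin, a secreted protein of duct cells (208 FPKM against 25.7 to 36.1), Car2, a carbonic anhydrase (3.24 against 0.092 to 0.385), Ano1, a chloride channel (6.92 against 0.743 to 0.997), and Bicc1, an RNA-binding protein linked to tubule cysts (15.5 against 3.18 to 4.24). These 7 were chosen after their values were seen, and one library gives no test.

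**Figure D4:**
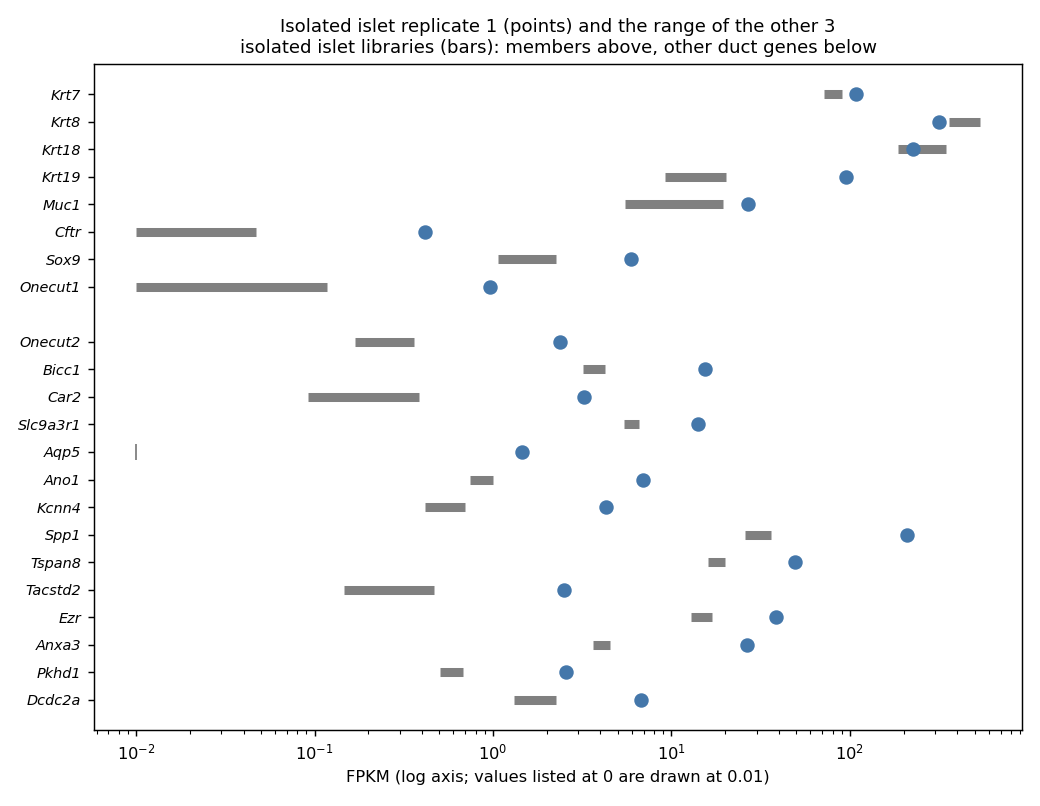
Level in FPKM (log axis, with values listed at 0 drawn at 0.01) of the 8 genes and of the 14 other duct genes more than 2 times as high in isolated islet replicate 1 as in the next isolated islet library. Filled points are replicate 1 and grey bars span replicates 2 to 4: Krt7, Krt19, Muc1, Cftr, Sox9 and Onecut1 lie above the bar, Krt18 within it and Krt8 below it.

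Markers of other cells are given beside these results. The 31 acinar genes summed to 9802, 86682, 22373 and 112552 FPKM in isolated islet replicates 1 to 4 and to between 28.0 and 54.7 in all grafts. Replicate 1 thus had the least acinar RNA where it had the most Krt19, and replicates 2 and 4, with the most acinar RNA, had the highest Krt8 and Krt18. Of 28 tested acinar genes 27 fell and none rose at both ages, but 23 of the 28 were under 1 FPKM in all grafts and passed the filter only through the isolated islets, so this count carries no weight. The acinar share of all FPKM was 9.34% ± 7.69 (SD, n = 4) in isolated islets, 0.00830% ± 0.00372 at day 60 and 0.00792% ± 0.00112 at day 120. The exact two-sided permutation p was 0.0286 at both ages, the smallest that 70 assignments allow. The list was chosen with earlier results of these data known, so this p-value carries no weight as a test either. The part of acinar RNA in the falls of Krt8, Krt18 and Muc1 was not tested.

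Markers of other epithelia, which also make keratins, were low in most grafts. Of 16 genes of mammary and stratified epithelium, Krt5, Krt14, Krt15, Krt17, Krt6a, Elf5, Csn2 and Wap were listed at 0 in all 8 grafts, while Csn3, a milk casein gene, and Krt10, the only 2 tested, rose at day 60 (log2 change 1.10 and 0.60, limma adjusted p = 0.0105 and 0.00771). At day 120 only Krt10 passed (0.57, 0.0153; Csn3 0.10, 0.821). The whole list summed to 3.29 to 12.1 FPKM in isolated islets, 4.24 to 6.70 at day 60 and 3.22 to 4.06 at day 120. Day 60 replicate 1 had the lowest sum of this list among the day 60 grafts, but differed from the other grafts in some skin genes. Trp63, the p53 relative of basal epidermis, was 1.32 FPKM in it against at most 0.502. Krtdap, a keratinocyte gene chosen after its values were seen, was 26.9 against at most 1.18. The part of skin RNA in the keratin levels of that library was not tested. The 8 mesothelium genes summed to 6.38 to 16.9, 1.27 to 3.80 and 1.46 to 4.11 FPKM. Of these, Wt1 stayed at or below 0.095 FPKM in all libraries, and Bnc1 was listed at 0 in all grafts. Only Msln and Gpm6a were tested. Msln fell (log2 change -2.50 at day 60, limma adjusted p = 0.000486). Gpm6a had estimates above 0 that did not pass (0.37 at day 60 and 0.40 at day 120, limma adjusted p = 0.261 and 0.254). The fat, matrix and macrophage lists rose in the grafts. At day 60, 10 of 12, 14 of 15 and 8 of 9 tested genes were higher, where 31.3% of all tested genes rose. At day 120 these counts were 9, 13 and 7, where 24.3% rose. Of 7 endothelium genes 1 rose at day 60 and none at day 120, and none fell. Of 20 endocrine genes 1 rose and 2 fell at day 60, and 3 rose and 1 fell at day 120. Day 60 replicate 1, with the highest sums of fat (15196 FPKM) and matrix genes (6225) and the lowest endocrine sum (41657), also had the lowest Krt7, Krt8 and Krt18 of all grafts, and the part of this mixture in those values was not tested. Scaled to the summed non-hormone endocrine genes, the log2 changes of Krt8 and Krt18 were -3.17 and -1.59 at day 60 and -3.31 and -1.86 at day 120, and both genes passed at both ages. Krt19, Muc1 and Sox9 passed too, but the filter had built their fall into their being tested.

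The rest of the keratin family was low in all groups. Of 47 other keratin genes in the table, 16 were listed at 0 in all libraries, and 6 reached a mean of 1 FPKM in any group. Krt17, a keratin of basal and stressed epithelium, ran from 0.335 to 6.52 FPKM in isolated islets, and Krt23, a type I keratin, from 0.574 to 4.70. Krt17 was listed at 0 in all 8 grafts, and Krt23 was at most 0.522 in any graft. Krt10, known from the upper epidermis, rose from 0.995 ± 0.188 FPKM (SD, n = 4) to 2.01 ± 0.0726 at day 60 (limma adjusted p = 0.00771) and 1.97 ± 0.288 at day 120 (0.0153). Krt222, a keratin-like gene, rose from 2.03 ± 0.381 to 4.25 ± 1.40 and 4.56 ± 0.110 FPKM (0.0114 and 0.01004). Krt83, a hair keratin, fell (log2 change -0.85, limma adjusted p = 0.0320, and -0.93, 0.0303). It ran from 0.400 to 2.21 FPKM in isolated islets, 0 to 1.27 at day 60 and 0.141 to 0.351 at day 120. Krt83 thus passed the filter mainly through the isolated islets, so its p-values carry little weight. Krt80 was at 1.74, 2.27 and 2.13 FPKM and did not pass.

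Other duct genes did not move as one. Among 8 tested duct regulators of 9 listed, 1 rose and 2 fell at day 60, and none rose and 3 fell at day 120, with median log2 changes of -0.59 and 0.01. Of all tested genes 31.3% rose and 12.3% fell at day 60, and 24.3% rose and 7.03% fell at day 120. Prox1, a homeodomain factor, fell from 9.37 ± 1.44 FPKM (SD, n = 4) to 2.1 ± 0.867 and 3.56 ± 0.971 (log2 change -1.78 and -1.20). The zinc-finger factor Glis3 fell as well (-1.68 and -0.89). Yap1, the Hippo pathway coactivator, rose at day 60 (1.02, limma adjusted p = 0.0319) but did not pass at day 120 (0.36, 0.436).

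Among 10 tested genes of fluid and bicarbonate secretion of 14 listed, 3 rose and 1 fell at day 60, and 2 rose and 1 fell at day 120, with medians of -0.003 and 0.09. These counts are near the shares of all tested genes, 31.3% up and 12.3% down at day 60 and 24.3% and 7.03% at day 120. Aqp1, a water channel also made by endothelium, rose from 2.57 ± 0.684 FPKM (SD, n = 4) to 43.1 ± 34.7 and 24.0 ± 13.3 (log2 change 3.39 and 2.68, limma adjusted p = 0.000295 and 0.00234). The anion exchanger Slc26a6 rose by less (0.75 and 0.67). Slc26a6 was at most 0.721 FPKM in isolated islets and passed the filter only through the grafts. Its rise was thus built into its being tested, and it carries no weight in the counts above. The potassium channel Kcnn4 rose at day 60 (1.09, adjusted p = 0.0476) and did not pass at day 120 (0.85, 0.129). The cotransporter Slc12a2 fell at day 60 (-0.45, 0.0489) and did not pass at day 120 (-0.46, 0.0571).

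Among 18 tested surface and secreted proteins of 21 listed, 1 rose and 7 fell at each age, not all of them the same genes. The median log2 changes were -0.24 at day 60 and -0.37 at day 120. Of all tested genes 12.3% fell at day 60 and 7.03% at day 120, while 31.3% and 24.3% rose. The claudins, strand proteins of tight junctions, were among those that fell. Cldn4 fell from 249 ± 117 FPKM (SD, n = 4) to 13.2 ± 7.91 and 22.9 ± 6.25 (log2 change -4.15 and -3.26), Cldn7 by a log2 change of -2.47 and -1.78, and Cldn3 by -2.28 and -1.52. Tff2, a secreted trefoil peptide, was 47.7 to 392 FPKM in isolated islets and listed at 0 in all 8 grafts, with the lowest isolated islet value in replicate 1. Tff2 passed the filter only through the isolated islets, so its fall was built into its being tested. No gene of the 3 lists passed between day 120 and day 60.

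**Figure D5:**
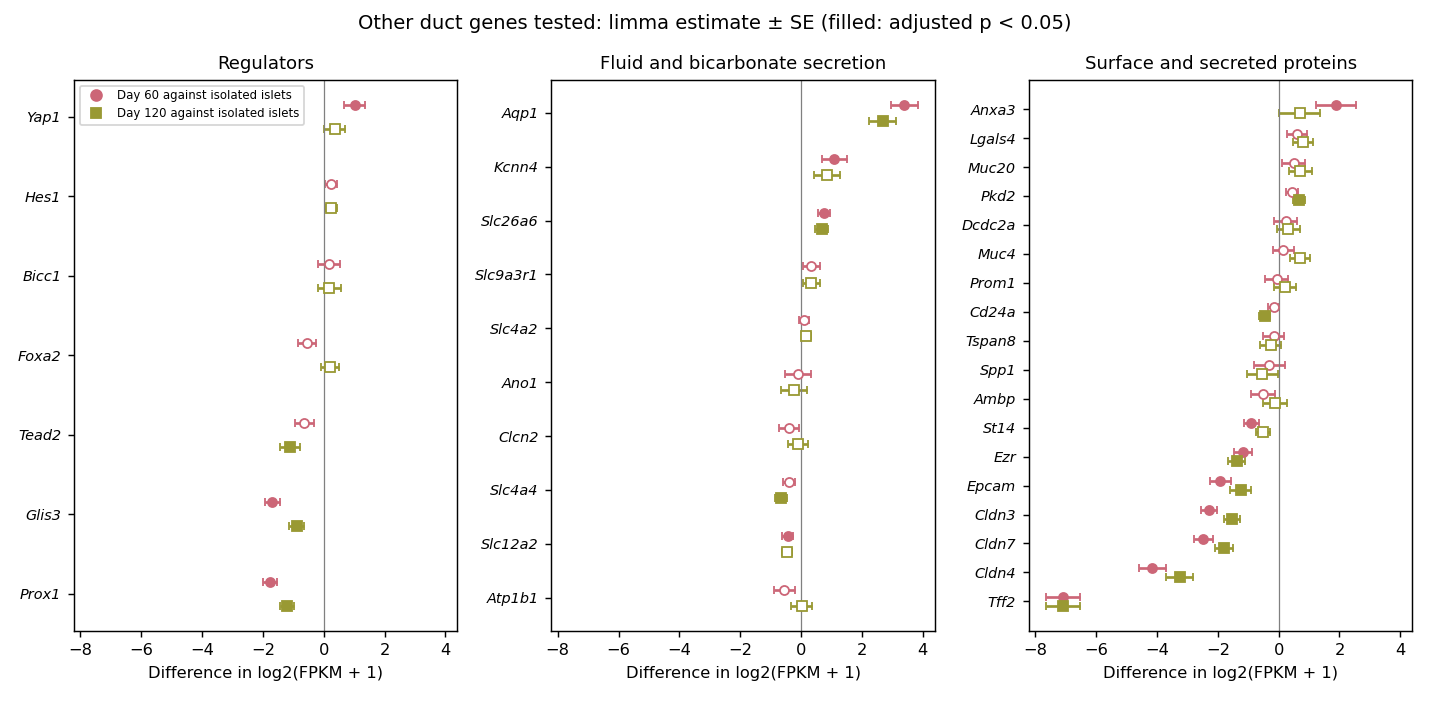
Difference in log2(FPKM + 1) from isolated islets (horizontal axis, limma estimate ± SE) of the other duct genes that were tested (1 regulator is not shown), in 3 panels: regulators, fluid and bicarbonate secretion, and surface and secreted proteins. Circles are day 60 and squares day 120, filled where the adjusted p is under 0.05: Tff2 and Cldn4 lie lowest, Aqp1 highest, and most regulators and secretion genes are unfilled.

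The genes whose log2(FPKM + 1) followed a member most closely over the 12 libraries are given as a description, because all points share the 3 groups and their libraries. Krt7 went with Atp1b1 (Pearson r = 0.983), the beta subunit of the sodium pump, which ran from 55.8 to 107 FPKM in isolated islets, 20.8 to 81.1 at day 60 and 66.9 to 82.3 at day 120. Rad21 (0.965), a cohesin subunit, and the homeodomain gene Meis2 (0.962) came next. Krt8 went with the kinase genes Itpkc (0.990) and Dyrk3 (0.988) and with Atf4 (0.990), a transcription factor of the stress response, which ran from 278 to 317 FPKM before transplantation and from 96.1 to 147 after it. Krt18 went with Dyrk3 (0.978), the tubulin gene Tuba4a (0.976) and Cldn3 (0.975). Krt19 and Sox9 both went with Fosl1 (0.988 and 0.982), a subunit of AP-1 that was at most 0.211 FPKM in grafts. Maff (0.980) was also among the genes named for Krt19, and Sfn (0.969) among those for Sox9. Muc1 went with Dmbt1 (0.967), a secreted mucosal protein (85.2 to 316 FPKM before transplantation, at most 0.186 after), and with Sprr1a (0.967) and Clu (0.964).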

How the data were processed

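RNA of 12 mouse libraries, 4 isolated islet, 4 day 60 and 4 day 120 graft libraries, was read as the FPKM values the authors deposited, 1 per gene symbol. Per the labels' protocols, amplified cDNA from a low-input kit was sequenced, and alignment and quantification used build mm9, TopHat2 and Cufflinks 2.1.1, per the submitters' processing notes. Annotation, options and read counts are not given in the sources used here, so depth is unknown and no counting interval is printed. Library columns were matched to samples through the labels.

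Values were taken as log2(FPKM + 1) without further scaling. The summed FPKM of a library ran from 396769 to 786366, so FPKM levels and shares of all FPKM are unlike measures. Genes with at least 1 FPKM in at least 4 libraries (13433, with 9801 left out) were fitted with limma 3.58.1 in R 4.3.3 (statmod 1.5.0) to the 3 groups together (no other covariate; trend and robust options on). Adjusted p-values are two-sided, by Benjamini-Hochberg over all tested genes, with a threshold of 0.05. The code was tested on simulated data. The acinar share was compared by exact permutation (scipy 1.17.1).

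The members and gene lists were chosen with earlier results of these data known. The genes named are all 8 members, up to 4 genes of each other duct list with the smallest p at day 60, other keratins with a mean of at least 1 FPKM in a group, and the 3 genes most correlated with each tested member, with unnamed gene models and short RNAs left out. Of the genes this rule names, 2 are not reported here. Alternatives were the pseudocount, the filter, 3 scalings, array weights, the variance model, 2-group fits, a replicate block and leaving out each library. The labels number the day 60 and day 120 grafts but state no pairing. Deviations from the group means of same-numbered graft libraries correlated at 0.180 to 0.442 in 4 of 4 pairs. Promoter sequences come from the RefSeq table of build GRCm38.p6. They were not used in any test.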

Additional observations from a re-analysis of the deposited data

Results flagged for a closer look

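Within each group of 4 libraries the highest or lowest value was compared with its nearest neighbour: a library was singled out where that gap, as a share of the whole range, exceeded Dixon's 95% critical value. Of 29 groups tested 5 were singled out, where chance gives about 1 in 20. The groups share libraries and several values lie near 0, so this count cannot show an excess over that share. Isolated islet replicate 1 was high for Krt19, at 95.614 FPKM, for Cftr, at 0.414 FPKM, and for Onecut1, at 0.957 FPKM. Day 120 replicate 4 was high for Sox9, at 0.370 FPKM, and day 60 replicate 4 for Onecut1, at 0.041 FPKM against 3 values listed at 0. With those 3 at 0, any value above 0 in the remaining library would have been singled out.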

How the results depend on the processing

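In every alternative, Krt8 and Krt18 kept their fall and an adjusted p under 0.05 in limma at both ages. Krt19, Muc1 and Sox9 did so wherever they were tested. With the filter on, though, their fall was built into their being tested, so passing there carries no weight for them. With the filter applied anew after leaving out an isolated islet library (each of the 4), Krt19, Muc1 and Sox9 no longer reached 4 libraries, so 2 members passed at both ages. The count of all genes depended on the libraries. Against isolated islets at day 60 it was 5865, and 10359 with array weights, whose estimation did not converge. At day 120 it was 4212, with 8943 under array weights, 464 scaled to non-hormone endocrine genes, 7571 without the 2 libraries that stand apart, 1885, 1931 and 1839 with the filter anew without isolated islet replicates 2, 3 and 4, and 1986 to 6031 with 1 library left out. Between grafts it was 2, and 1 with a pseudocount of 0.01, 4 with no filter, 2874 with array weights (1 member), and 2 to 21 with 1 library left out, 21 without day 60 replicate 4. Directions turned for values that did not pass. Krt7 at day 120 was -0.0893 with upper-quartile scaling, -0.137 scaled to the sum without hormone and acinar genes, -0.279 scaled to endocrine genes and -0.0206 without isolated islet replicate 4 (-0.0206 to 0.178 with 1 library left out). Between grafts Muc1 was -0.0451 with array weights, -0.0705 scaled to endocrine genes and -0.00567 without day 60 replicate 1 or both libraries that stand apart (-0.00567 to 0.204), and with endocrine scaling Krt7, Krt8, Krt18 and Krt19 were -0.198, -0.148, -0.272 and -0.0628. The cause was not tested. The median log2 change over the tested genes, 0.27 at day 60 and 0.30 at day 120, was 0.13 and 0.17 with upper-quartile scaling, -0.04 and 0.02 with quantile normalization and 0.59 and 0.01 with endocrine scaling. The replicate block over the 12 libraries gave 5804, 4254 and 2 genes, with 5, 5 and 0 members, and on the 8 grafts 3 genes and 0 members: it changed no call of a member. The numbers did not pair isolated islets with grafts (correlations -0.0699 to 0.0199 at day 60 and -0.0784 to 0.0154 at day 120). The acinar difference ran from -11.7 to -6.61 percentage points with 1 library left out at both ages. The exact permutation p was then 0.0571, the smallest possible with 3 against 4, and carries no weight as a test. Unknown read depth limits what can be said of values under 1 FPKM.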

Other observations

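Some skin and hair follicle genes were highest in day 60 replicate 1. Beside Krtdap and Trp63, both listed at 0 in the 4 isolated islets, Krt79, a keratin of the hair canal, was 2.54 FPKM in it against at most 0.917 in the other 7 grafts, and Krt36, a hair keratin, 1.47 against at most 0.396. Krt79 and Krt36 were chosen after their values were seen and were not tested. In the same library Krt5 and Krt14, the basal epidermal keratins, were listed at 0. The list of mammary and stratified epithelium summed to 4.24 FPKM there, below the other day 60 grafts (5.99, 6.70 and 4.88 in replicates 2, 3 and 4).

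The 2 genes that passed between day 120 and day 60 were a gene model, Gm9781 (log2 change -2.30), and a short RNA, Mir344g (9.13), and neither is a keratin or duct gene.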
